A study of Homo sapiens with 2 samples.

Results

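The digestive enzyme genes of the pancreatic acinar cell were examined in RNA-seq of H1-derived Stage 6 cells. The group holds 9 of the 55797 genes in the authors' tables, chosen by gene symbol, and each symbol matched exactly 1 gene. They encode a trypsinogen (PRSS1), a pair of chymotrypsinogens (CTRB1 and CTRB2), a pair of elastases (CELA3A and CELA3B), a carboxypeptidase (CPA1), lipases (PNLIP and CEL) and an amylase (AMY2A). H1 is an established human embryonic stem cell line, and Stage 6 is the end of a stepwise pancreatic differentiation that yields insulin-expressing cells among other cells. The live condition was 1 library of unfixed, unsorted cells, with RNA extracted by the RNeasy protocol. The processed condition was 1 library of cells from the same differentiation that were fixed in 4% paraformaldehyde, permeabilized, stained with antibodies and passed through the sorter with every cell collected, with RNA taken by a modified RecoverAll protocol. The question was whether this handling, named MARIS, altered how much of each transcript was seen.

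Acinar cells make the digestive juice of the pancreas. They store most proteases as inactive zymogens in granules, together with lipases and amylase, and release them into the ducts, after which enteropeptidase in the gut activates trypsinogen and trypsin activates the other zymogens. Transcription of these genes in the acinar cell depends on the PTF1 complex, which contains PTF1A and, in mature cells, RBPJL, and which binds an E-box next to a second element. In the embryonic pancreas, PTF1A and CPA1 also mark multipotent progenitor cells before acinar cells form.

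Values are FPKM, the authors' measure of fragments corrected for exon length and library size, with the lower and upper bounds that the authors' files give for each library. The confidence level behind the bounds is not given, and they describe each library alone. Ratios are log2((processed FPKM + 1) / (live FPKM + 1)), which makes changes of weakly expressed genes look smaller than they are. As each condition has 1 library, no difference has a replicate check and no p-value is given. A gene is called expressed here when its FPKM was 1 or more in at least one library, which held for 17326 genes. The FPKM worth of 1 fragment, read from the lowest values, was 1.07 times as large in the processed library. The median of the processed to live ratio over genes of 1 FPKM or more in both libraries was 0.932, a log2 shift of -0.10 before any pseudocount, which weighs less on the ratios of low genes given below. The hormone genes INS (98.3 FPKM live, 121 processed), GCG (135 and 131) and SST (243 and 266) were present in both libraries, matching the labels. The processed table lists 11 genes with 10 FPKM or more in live cells at exactly 0, so a value of 0 is reported only as listed at 0. In RNA from whole cultures, fewer cells of a type and less RNA per cell cannot be told apart.

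Several of these enzymes belong to recent gene duplications, and their sequences decide which values can be read as those of a single gene. On GRCh37, CTRB1 and CTRB2 each have a coding sequence of 789 nt and differ at 26 positions, an identity of 96.7%. CELA3A and CELA3B each have 810 nt of coding sequence and differ at 38 positions, an identity of 95.3%. The stretches of 80 coding bases with the most differences within each pair are shown because only reads over such positions can tell the copies apart, with differing bases in capitals. They span coding bases 704 to 783 of the chymotrypsinogens, with 12 differences, and coding bases 190 to 269 of the elastases, with 9 differences.
CTRB1: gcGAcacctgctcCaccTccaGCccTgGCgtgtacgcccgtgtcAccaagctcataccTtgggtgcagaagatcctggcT
CTRB2: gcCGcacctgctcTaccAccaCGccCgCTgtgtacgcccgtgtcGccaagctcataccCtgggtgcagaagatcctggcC
CELA3A: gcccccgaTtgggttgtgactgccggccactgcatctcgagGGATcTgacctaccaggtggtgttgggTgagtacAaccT
CELA3B: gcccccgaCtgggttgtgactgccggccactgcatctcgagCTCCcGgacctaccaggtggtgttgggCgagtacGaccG
The opposite case is a stretch of coding bases 52 to 131 that is the same in both chymotrypsinogens, so that a read lying within it names neither gene.
CTRB1 and CTRB2: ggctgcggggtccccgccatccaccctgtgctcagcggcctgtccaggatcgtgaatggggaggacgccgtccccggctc

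A read length of 80 nt was used to ask how much of each transcript is shared exactly with a transcript of another gene in the authors' tables. Of the 791 windows of this length in the CTRB1 transcript, 502 (63.5%) also occurred in CTRB2. For AMY2A the share was 77.5%, mainly with AMYP1, AMY2B and AMY1A. For CEL it was 21.0%, with the neighbouring pseudogene CELP. CELA3A and CELA3B shared 4.72% of their windows with each other. PRSS1, CPA1 and PNLIP shared 0 windows with any other listed gene, although a near copy with a few mismatches would escape this count. At 170 nt, close to the fragment length, the share stayed at 58.8% for CTRB1 and CTRB2 and was 0 for both elastases. By this measure windows of PRSS1 and CPA1 matched no other compared gene. The trypsinogen PRSS2 was not among the compared genes, so PRSS1 is not shown to have a value of a single gene. The values of CTRB1, CTRB2 and AMY2A are uncertain as those of single genes.

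**Figure D1:**
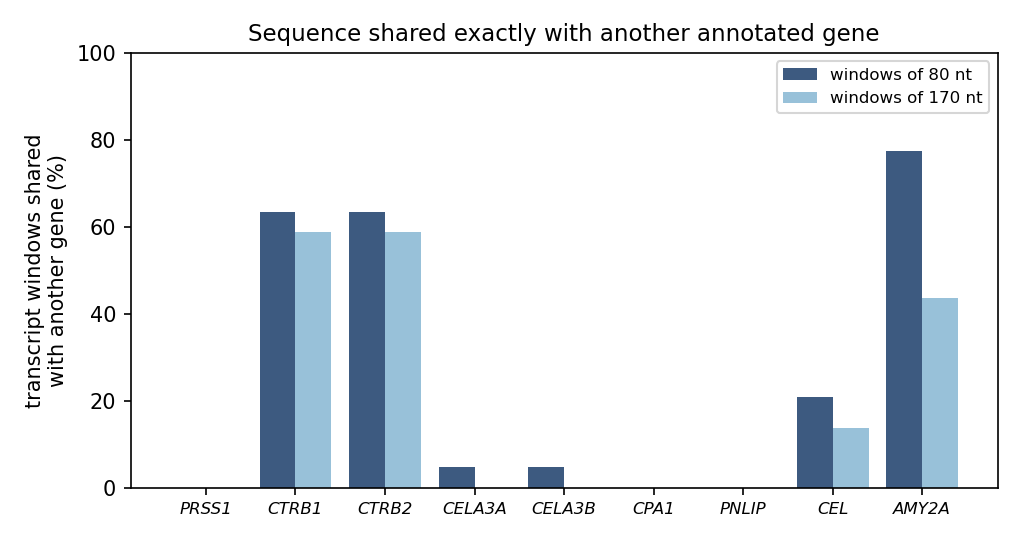
Share of windows of 80 nt and 170 nt in the canonical transcript of each enzyme gene that occurs exactly in a transcript of another gene in the authors' tables, in percent (bars). CTRB1 and CTRB2 stand at 63.5% for 80 nt, AMY2A at 77.5%, and PRSS1, CPA1 and PNLIP at 0. PRSS2 was not among the genes compared.

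The promoters of the 3 members with the clearest signal in live cells are shown for the E-box form CACCTG of the PTF1 complex, since PTF1A itself was measured in these cells. Each run is the 250 bases before the annotated start, from RefSeq on GRCh38.p14, and differs in build from the coordinates of the tables. The letters CACCTG and TTTCCC were searched on both strands, and matches are in capitals. The first is PRSS1 (chr7:142749222-142749471, plus strand), the second CPA1 (chr7:130380244-130380493, plus strand) and the third CEL (chr9:133061731-133061980, plus strand).
PRSS1: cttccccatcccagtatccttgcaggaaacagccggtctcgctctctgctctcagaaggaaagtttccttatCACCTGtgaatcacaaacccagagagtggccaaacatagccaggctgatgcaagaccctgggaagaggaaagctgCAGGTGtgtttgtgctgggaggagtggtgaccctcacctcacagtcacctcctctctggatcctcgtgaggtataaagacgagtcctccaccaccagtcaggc
CPA1: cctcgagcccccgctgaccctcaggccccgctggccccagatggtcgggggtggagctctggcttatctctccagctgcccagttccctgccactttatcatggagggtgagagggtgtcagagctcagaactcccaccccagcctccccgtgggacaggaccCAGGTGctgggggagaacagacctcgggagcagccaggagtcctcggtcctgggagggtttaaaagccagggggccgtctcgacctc
CEL: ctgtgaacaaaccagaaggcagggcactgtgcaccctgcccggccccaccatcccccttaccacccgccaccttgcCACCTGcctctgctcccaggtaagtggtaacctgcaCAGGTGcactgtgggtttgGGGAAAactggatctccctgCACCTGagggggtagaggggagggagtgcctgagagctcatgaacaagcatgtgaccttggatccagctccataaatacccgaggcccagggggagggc
CACCTG stood 178 and 103 bases before the start in PRSS1, 87 bases before it in CPA1, and 174, 138 and 99 bases before it in CEL. TTTCCC was found in CEL, 119 bases before the start, between a pair of CACCTG matches. Of the 9 members, 8 were matched in the RefSeq table, CTRB1 being the other one. CACCTG was present in 6 of the 8, with 2 or more matches in 4 of them, against 17.5% and 2.53% of 35116 promoters of the same length. Both counts include CELA3A, with matches 196, 184 and 82 bases before the start, and CELA3B, with matches at 197, 185 and 83. These near copies do not count as independent promoters. TTTCCC was present in 1 of the 8, against 23.3% of all promoters. CELA3A and CELA3B had 3 matches of CACCTG each and FPKM values near 0 (below), so presence of the letters did not follow the level. PNLIP and AMY2A had none. These letter matches are descriptions and not binding sites.

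By the mean of both libraries the members divided into a pair near 10 FPKM, a pair between 1 and 3 FPKM and 5 genes near or at 0. PRSS1 (ENSG00000204983.8, GRCh37/hg19 chromosome 7, 142457319 to 142460923, plus strand, 5 exons) encodes cationic trypsinogen, the zymogen of the protease that activates the others. It had 9.52 FPKM in live cells (bounds 8.74 to 10.3) and 12.9 FPKM in processed cells (bounds 11.9 to 13.8). The bounds did not overlap, and the log2 ratio was 0.40, short of the 2-fold line. PRSS1 stood above 61.2% of the 19182 protein-coding genes in live cells and above 69.6% in processed cells. Its values correspond to about 607 fragments in live and 765 in processed cells, estimated from the step of 1 fragment and the transcript length.

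PRSS1 lies within the T cell receptor beta region of chromosome 7, next to trypsinogen pseudogenes. The nearest gene at higher coordinates, the pseudogene PRSS3P1, had 2.80 FPKM in the live and 1.27 FPKM in the processed library, lower where PRSS1 was higher and with separate bounds. The next copy, PRSS3P2, had 3.06 and 2.80 FPKM, with overlapping bounds. The opposite directions of PRSS1 and PRSS3P1 were not tested for reads exchanged between them. PRSS2, the anionic trypsinogen, was not analysed here and was not among the transcripts compared by windows.

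CTRB1 (ENSG00000168925.6, chromosome 16, 75252898 to 75258822, plus strand, 7 exons) encodes chymotrypsinogen B1 and was the member with the largest difference. It had 0.478 FPKM in live cells (bounds 0.303 to 0.653) and 2.87 FPKM in processed cells (bounds 2.32 to 3.41). The processed value was 6.00 times the live value without a pseudocount, and the log2 ratio was 1.39. Taking the bounds at their closest and farthest gave log2 ratios of 1.01 and 1.76, both beyond the 2-fold line. About 33.4 fragments stood behind the live value and 187 behind the processed value. CTRB2 (ENSG00000168928.8, chromosome 16, 75237994 to 75241083, minus strand), its neighbour in opposite orientation, was listed at 0 in both libraries. Since most read-length windows of the pair are identical, as in the shared stretch printed above, the CTRB1 values are best read as those of the pair, whose sum gives the same log2 ratio of 1.39. A pseudogene 1150 nt beyond the end of CTRB1, RP11-331F4.4, was listed at 0 in live cells and had 1.36 FPKM in processed cells. As RP11-331F4.4 is only listed at 0 in live cells, no change of the region is read from it.

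The elastase genes CELA3A (ENSG00000142789.14, chromosome 1, 22328149 to 22339032) and CELA3B (ENSG00000219073.3, chromosome 1, 22303514 to 22325135) lie 3014 nt apart on the plus strand. CELA3A had 0.0214 FPKM in live cells and was listed at 0 in processed cells. CELA3B had 0.0149 FPKM live and 0.0383 FPKM processed. These values correspond to between 1.09 and 2.62 fragments, so neither gene had a level that could be compared. The bounds of both genes are narrower than such numbers of fragments would give.

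CPA1 (ENSG00000091704.4, chromosome 7, 130020180 to 130027955, plus strand, 10 exons) encodes carboxypeptidase A1, which removes single residues from the ends of peptides. It was the highest member in live cells, at 10.4 FPKM (bounds 9.61 to 11.2), and had 9.98 FPKM in processed cells (bounds 9.01 to 10.9). The bounds overlapped, and the log2 ratio was -0.05, which became 0.04 after division by the median ratio. With about 1258 fragments in live and 1128 in processed cells, CPA1 was the member with the most fragments behind its value. In live cells the bounds of CPA1 and PRSS1 overlapped, so their order there is not settled, whereas in processed cells PRSS1 was 1.29 times as high and the bounds were separate. Of the genes beside CPA1, CPA5, a carboxypeptidase at lower coordinates, had 0.558 FPKM in live cells and was listed at 0 in processed cells, and CEP41 had 7.69 and 8.44 FPKM.

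CEL (ENSG00000170835.10, chromosome 9, 135937365 to 135947248, plus strand, 11 exons) encodes carboxyl ester lipase, which is activated by bile salts and is also secreted in milk. It had 2.13 FPKM in live cells (bounds 1.93 to 2.33) and 1.13 FPKM in processed cells (bounds 0.970 to 1.28). The processed value was 0.529 times the live value without a pseudocount, and the log2 ratio was -0.56 with separate bounds. About 470 and 232 fragments stood behind these values. CEL thus differed in the direction opposite to PRSS1 and CTRB1. Its pseudogene CELP, 10678 nt away, had 0.209 FPKM live and 0.245 FPKM processed, with overlapping bounds, and GTF3C5 on the other side had 36.6 FPKM in both. PNLIP (ENSG00000175535.6, chromosome 10, 118305443 to 118327367), the colipase-dependent triglyceride lipase, was listed at 0 in both libraries. Being listed at 0 in both, as PNLIP and CTRB2 were, applied to 9.87% of all protein-coding genes.

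AMY2A (ENSG00000243480.3, chromosome 1, 104159999 to 104168402) encodes pancreatic alpha-amylase. It had 0.0199 FPKM in live cells (bounds 0 to 0.0787) and was listed at 0 in processed cells. Its near copy AMY2B had 2.24 FPKM live and 1.85 FPKM processed, with overlapping bounds, and was the amylase gene with nearly all of the signal. Of the 80 nt windows of AMY2A, 52.1% also occur in the pseudogene AMYP1 and 27.6% in AMY2B. At 170 nt these shares were 38.9% and 2.83%. AMYP1 had 0.0500 FPKM in live cells and was listed at 0 in processed cells. Whether reads of AMY2A came from these copies was not tested. AMY1A and AMY1C, the salivary amylases of the same cluster, were below 0.1 FPKM in live cells and listed at 0 in processed cells, and AMY1B was listed at 0 in both. Among genes above 0 and below 0.1 FPKM in live cells, 47.7% were listed at 0 in processed cells, as CELA3A and AMY2A were.

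**Figure D2:**
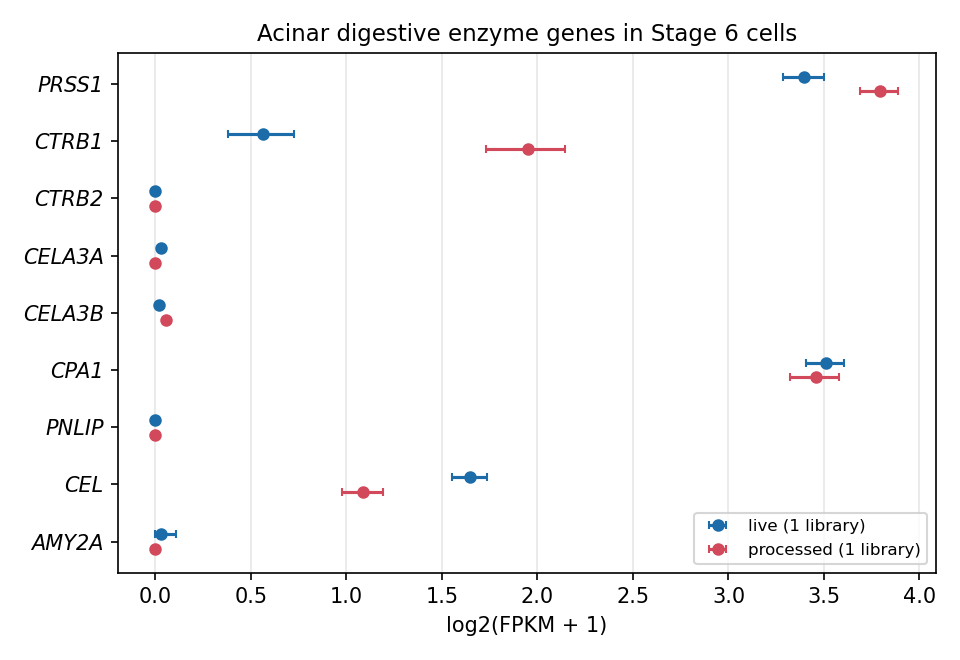
Level of each enzyme gene as log2(FPKM + 1) in the live (blue) and processed (red) library, 1 library each, with bars for the lower and upper bounds in the authors' files. PRSS1 (9.52 and 12.9 FPKM) and CPA1 (10.4 and 9.98 FPKM) lie to the right, CTRB1 and CEL differ in opposite directions, and 5 genes lie at or near 0.

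Summed over the group, the members had 22.6 FPKM in the live library and 26.9 FPKM in the processed one, a ratio of 1.19. PRSS1 and CPA1 together made up 88.2% of the live sum and 85.0% of the processed sum. CTRB1 went from 2.12% of the sum to 10.7%, and CEL from 9.44% to 4.19%. All enzymes together were 0.00442% of the FPKM of the live library and 0.00538% of that of the processed library. INS alone had 4.35 times the live sum and 4.51 times the processed sum. The enzyme genes were thus a minor part of the transcriptome in either library.

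Of the 9 members, 4 were expressed. CTRB1 reached 1 FPKM through the processed library alone, so a higher value there was fixed by the filter. Of these 4, 1 (CTRB1) lay above the upper 2-fold line and 0 lay below the lower one, against 6.57% and 6.19% of all 17326 expressed genes. At the level of CTRB1, a mean FPKM from 1 to 3, the background was larger, with 13.6% of 3432 genes and 8.49% of 2050 protein-coding genes more than 2-fold higher. Bounds were separate for 3 of the 4, with PRSS1 and CTRB1 higher and CEL lower, against 71.8% of all expressed genes. The median log2 ratio of the 4 was 0.17, from -0.56 to 1.39, against -0.09 over all expressed genes. The members did not move as a group, and these counts do not set them apart from other genes.

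**Figure D3:**
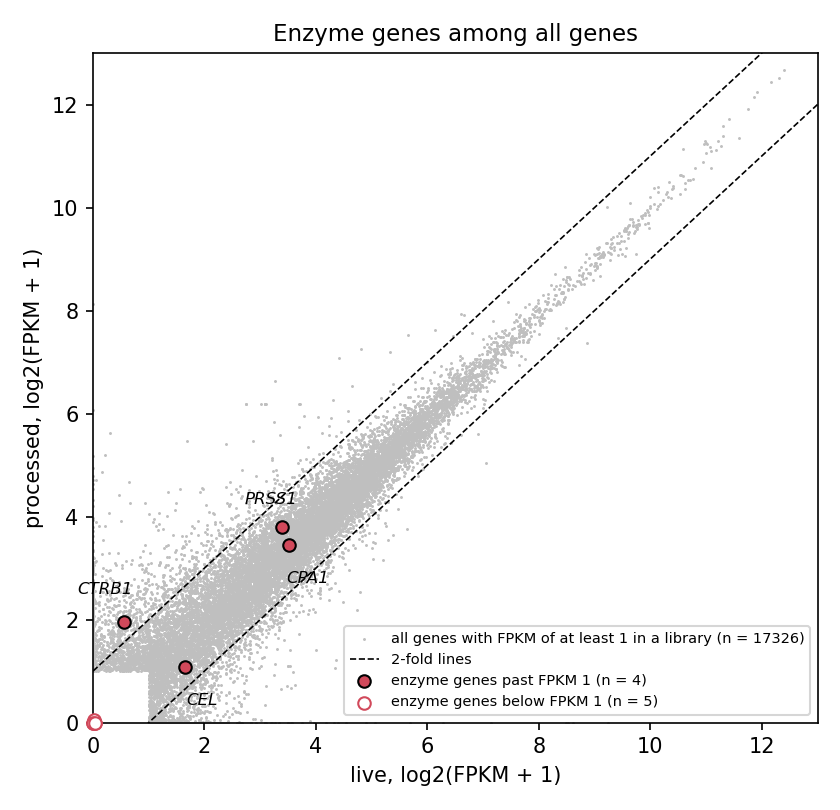
FPKM in live (horizontal) against processed cells (vertical), both as log2(FPKM + 1), for the 17326 expressed genes, those of 1 FPKM or more in a library (grey) and the 9 enzyme genes (red, open where below 1). Of the labelled genes, CTRB1, expressed through the processed library alone, lies above the upper 2-fold line. PRSS1, CPA1 and CEL lie between the lines.

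The protein-coding genes nearest to each member in both libraries, by distance in log2(FPKM + 1), were ERCC5 for PRSS1 (distance 0.019), VPS13D for CPA1 (0.018), RAPGEF5 for CEL (0.0045) and ADAM12 for CTRB1 (0.035). With 2 libraries such likeness describes the level and the ratio alone.

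Other genes of the acinar secretory programme were taken from a list of 31, of which 30 were matched. Of these, 10 were expressed, and 8 were listed at 0 in both, among them the granule proteins SYCN and ZG16. Of all protein-coding genes, 9.87% were listed at 0 in both. SPINK1, the trypsin inhibitor that acinar cells secrete and that other epithelia also make, was far above the rest, at 1020 FPKM in live cells (bounds 1000.3 to 1041) and 1171 FPKM in processed cells (bounds 1147 to 1195). It had 45.2 times the live sum of the enzyme genes. CPB1, which encodes carboxypeptidase B, had 1.34 and 2.53 FPKM with separate bounds. DNASE1, a nuclease, had 13.3 and 16.3 FPKM, and RNASE1 had 4.74 and 6.77 FPKM, both with separate bounds.

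PLA2G1B, the pancreatic phospholipase A2, was the only one of the 10 to pass a 2-fold line. It had 0.600 FPKM in live cells (bounds 0.344 to 0.857) and 3.74 FPKM in processed cells (bounds 3.10 to 4.38). The log2 ratio was 1.57. Like CTRB1 it counted as expressed through the processed library alone, so a higher value there was fixed by the filter. CLPS, the colipase on which PNLIP depends, had 0.706 FPKM in live cells and was listed at 0 in processed cells, so that it was not among the 10. PRSS3, a trypsinogen made in pancreas and brain, had 3.78 and 1.70 FPKM, with overlapping bounds. Of the 10, bounds were separate and higher in processed cells for 5 and lower for 2, against 28.1% and 43.7% of all expressed genes. The 2 lower genes were ERP27, with 20.8 FPKM live and 16.7 FPKM processed, and SERPINI2, with 1.87 and 0.949 FPKM. SERPINI2 counted as expressed through the live library alone. The median log2 ratio of the 10 was 0.24, from -0.82 to 1.57.

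Of 8 transcription factors of the acinar lineage, most of which other endodermal cells share, all were expressed. With the pseudocount of 1, 0 passed a 2-fold line, against 6.57% above and 6.19% below among all expressed genes. With a pseudocount of 0.1, RBPJL passed the lower line. The share of all expressed genes past that line with 0.1 was not computed, so this does not set RBPJL apart from other low genes. PTF1A, the defining factor of the PTF1 complex, had 16.3 FPKM in live cells (bounds 15.5 to 17.0) and 14.5 FPKM in processed cells (bounds 13.8 to 15.2). RBPJL, its acinar partner, had 1.63 FPKM in live cells (bounds 1.42 to 1.85) and 0.365 FPKM in processed cells (bounds 0.319 to 0.412). The processed value was 0.224 times the live value without a pseudocount, with separate bounds, and the log2 ratio was -0.95, the lowest of the list, or -1.90 with a pseudocount of 0.1. BHLHA15, which organizes the secretory apparatus of acinar cells, had 0.542 and 1.04 FPKM. RBPJL counted as expressed through the live library alone and BHLHA15 through the processed library alone, so their directions were fixed by the filter. NR5A2, which cooperates with PTF1, had 13.8 and 9.97 FPKM with separate bounds. The median log2 ratio of the list was -0.18. PTF1A was therefore above every enzyme gene of the group in both libraries, whereas RBPJL and BHLHA15 were below 2 FPKM in both.

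**Figure D4:**
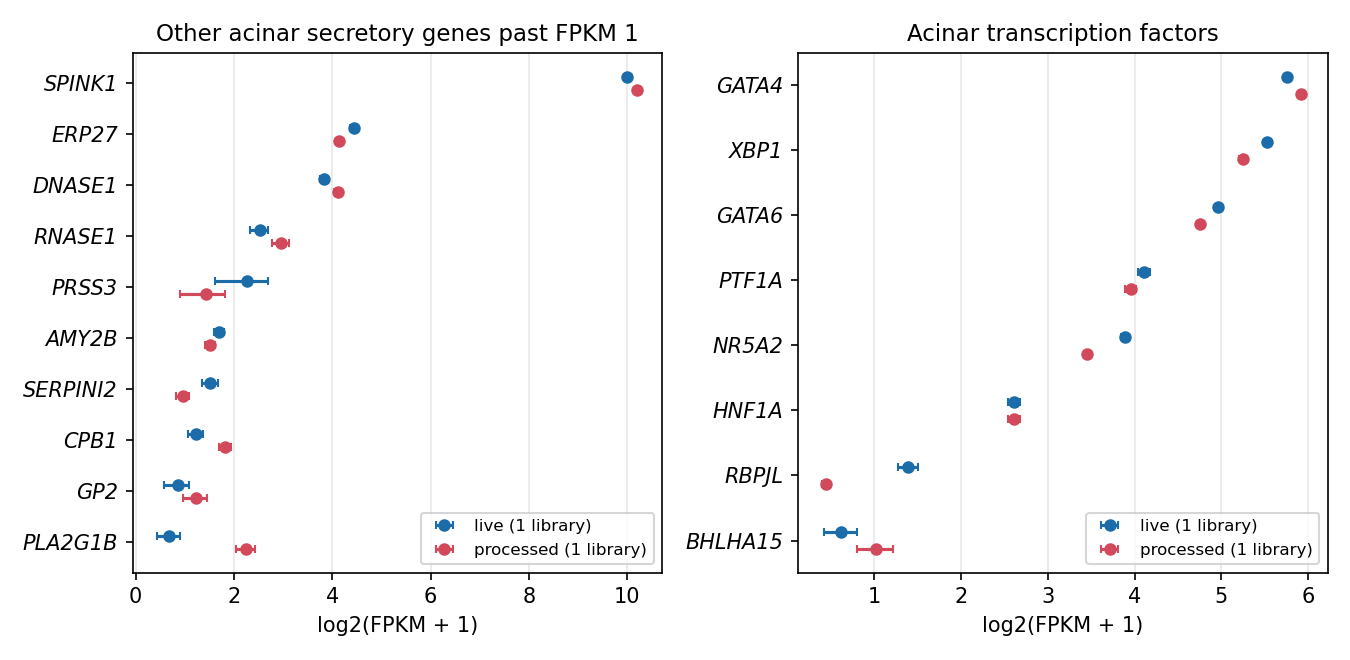
Levels as log2(FPKM + 1) in the live (blue) and processed (red) library, 1 library each with the authors' bounds as bars, for the 10 other acinar secretory genes that were expressed (left) and 8 transcription factors of the acinar lineage (right). SPINK1 stands apart at 1020 and 1171 FPKM, PLA2G1B is higher and RBPJL lower in processed cells. PLA2G1B counted as expressed through the processed library alone and RBPJL through the live library alone, so their directions were fixed by the filter.

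Markers of the other cells in these cultures were compared in the same libraries. All 10 duct markers were expressed, with a summed level of 747 FPKM live and 718 FPKM processed, led by KRT19. All 10 liver markers were expressed, with 2709 and 2995 FPKM, led by SERPINA1. Of 10 intestine and stomach markers 5 were expressed, with a sum of 91.7 FPKM in both libraries, and GKN1, ALPI and FABP2 were listed at 0. Of 10 endocrine markers 9 were expressed, and PPY was listed at 0 in both. All 8 markers of pancreatic progenitors were expressed, with sums of 303 and 285 FPKM. Of 11 relatives of the enzymes that are used in other tissues 3 were expressed, LIPC, CPA4 and LIPH. Of these 3, LIPH passed the upper 2-fold line, at 0.701 FPKM live and 2.46 FPKM processed, against 6.57% of all expressed genes. LIPH and CPA4 counted as expressed through the processed library alone, so a higher value there was fixed by the filter. TMPRSS15, which encodes enteropeptidase, was listed at 0 in both. The processed to live ratio of the summed levels was 1.11 for liver, 0.962 for duct and 0.940 for progenitor markers. It was 1.61 for the 11 relatives and 1.19 for the enzyme genes of the group. The endocrine sum was 2341 FPKM in both libraries, led by CHGA with 1794 FPKM live and 1741 FPKM processed. The processed CHGA value carries the status FAIL, with bounds from 0 to 4712 FPKM. The equality of the endocrine sums rests on that value and is not read as a result. The marker lists did not move together. The part of other cell types in the enzyme values was not tested.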

How the data were processed

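RNA-seq of 1 live and 1 processed sample of H1-derived Stage 6 cells was used, with groups taken from the sample labels. The authors sequenced 80 nt from both ends of each fragment, mapped them with STAR 2.2.0c to GRCh37/hg19 using GENCODE release 14, and deposited FPKM values with lower and upper bounds per gene. The submitters' processing notes name Cufflinks 2.0.2 and the methods name Cuffdiff of the same version. Read counts were not used here.

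Tables were joined by gene identifier with Python 3.11.15, numpy 2.4.6 and pandas 2.3.3. Log2 ratios used a pseudocount of 1, and counts past 2-fold used expressed genes, those of 1 FPKM or more in either library. Deposited start positions count from 0 and were raised by 1. Gene types, transcripts and coding sequences came from GENCODE release 44 on GRCh37, in which 94.5% of the identifiers were found. Sequences were compared with Biopython 1.88. Approximate fragment numbers used transcript length less 170 nt and the commonest low value of FPKM times length, 0.0100 in live and 0.0107 FPKM kb in processed cells, over genes with 1 transcript above 300 nt. They cover counting error only, are rough for genes with several transcripts and were not used in any call. The ratio and the 2-fold count were tested on simulated data drawn only from genes of 10 FPKM or more in live cells. The simulation held counting error alone, so it does not bear on the calls of low genes such as CTRB1.

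The members and lists were chosen with earlier results of these data known. All 9 members are named. Other genes are named where they were listed as expressed, belong to the transcription factors or hormones, lie next to a member or are nearest to one in level. PRSS3P2, AMYP1 and list genes below an FPKM of 1 were named after their values were seen. Alternatives covered the pseudocount, the filter, scaling and sums over near-identical pairs. No test between conditions was possible with 1 sample each. One gene of the wider acinar list is not reported here and was left out of its counts.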

Additional observations from a re-analysis of the deposited data

How the results depend on the processing

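With the filter raised to 10 FPKM in either library, 0 enzyme genes were more than 2-fold higher, because CTRB1 was no longer counted. Under the other pseudocounts, scalings and filters, including one on the mean of both libraries that was added after seeing the data, the counts remained 1 higher and 0 lower. CTRB1 passes the filter on the mean through its high processed value, so that filter cannot check the call. With a pseudocount of 0.1, 1 gene of the wider acinar list, PRSS3, and 1 transcription factor, RBPJL at -1.90, were more than 2-fold lower, the latter an alternative chosen after seeing the data. The share of all expressed genes past the same line with 0.1 was not computed. The log2 ratio of CTRB1 was 2.36 with a pseudocount of 0.1 and 2.56 with 0.01, and that of CEL was -0.86 and -0.91. Dividing by the median ratio or the FPKM sum gave a summed ratio of 1.28 or 1.22 and turned CPA1 to 0.04 under the former alone. The median log2 ratio lay between 0.19 and 0.27 across its alternatives. No paired analysis was possible because each condition has 1 sample. Depth limits CELA3A, CELA3B and AMY2A, which rest on fewer than 3 fragments, and shared sequence limits CTRB1, CTRB2 and AMY2A.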
